A study of Mus musculus with 8 samples.

Results

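Phase II conjugation enzymes attach a polar group to drugs, steroids, bile acids and reactive lipids so that they can leave the body. The set described here held the UDP-glucuronosyltransferases (Ugt1a, Ugt2a, Ugt2b and Ugt3a), the glutathione S-transferases (Gsta, Gstk, Gstm, Gsto, Gstp, Gstt and Gstz), the microsomal glutathione S-transferases (Mgst) and the sulfotransferases (Sult). Members were all gene symbols that started with these prefixes followed by a digit, without pseudogenes, and that had a feature annotated to a single symbol. They came to 52 of 22180 genes. Each was measured by 1 array feature. No Ugt1a and no Gstz gene had such a feature, so these families were seen only through features shared between genes.

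RNA was taken from whole livers of 8 adult male wild-type mice and hybridized to 8 Affymetrix MoGene 2.0 ST arrays, a chip whose probes cover most mouse transcripts. The 4 mice of the PBS group received vehicle, and the 4 mice of the IL1B group received 0.5 µg of recombinant interleukin 1 beta, a pro-inflammatory cytokine, as an intraperitoneal injection. Livers were collected after 3 h. The series description gives 7 weeks as the age at purchase and 2 weeks of acclimation. The strain label reads C57BL/6J for PBS and C57BL/6 x CBA for IL1B, although the series description gives C57BL/6J throughout, so an effect of strain and one of IL1B cannot be told apart by the labels. The comparison asked how an acute inflammatory challenge alters hepatic transcripts, here those of the conjugation enzymes.

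Glucuronosyltransferases sit in the endoplasmic reticulum and use UDP-glucuronic acid, glutathione S-transferases use glutathione, and cytosolic sulfotransferases use the sulfate donor PAPS. In liver they act mostly in hepatocytes, downstream of the cytochrome P450 oxidations. Many of their genes lie in tandem clusters of near-identical copies, and nuclear receptors such as CAR (Nr1i3) and PXR (Nr1i2), the aryl hydrocarbon receptor and NRF2 (Nfe2l2) are known to regulate them. Inflammation is known to lower many hepatic drug-metabolizing enzymes.

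Values were log2 RMA signals, and all arrays ended at a ceiling of 19.93. The highest background probe set of an array lay between 6.65 and 7.08, and a gene that did not exceed it in any array of a group is called at background in that group. Pairs of arrays correlated between 0.965 and 0.993 across genes. The neutrophil markers had a mean log2 value between 4.61 and 5.17 in the PBS arrays, and of 10.33, 11.04, 6.93 and 6.93 in IL1B arrays 1 to 4. The Kupffer cell and macrophage markers ranged from 9.997 to 11.22 in PBS and reached 13.39 and 12.80 in IL1B arrays 1 and 2, against 10.70 and 10.16 in IL1B arrays 3 and 4. IL1B arrays 1 and 2 thus stood apart, and the called members and those described as low in these arrays are given below with and without them. Features shared between genes were not fitted without both arrays. Of 9 hepatocyte markers measured, 8 were within 1 log2 unit of the ceiling in both groups, so those could not show a change in hepatocyte RNA. The remaining one, Asgr1, differed by -0.22 ± 0.18 (adjusted p = 0.491, limma). Nnt, which is disrupted in C57BL/6J mice, had a mean of 9.62 in PBS and 9.29 in IL1B (adjusted p = 0.51, limma), and H2-Ea, a class II gene that C57BL/6 mice lack, was at background in both groups.

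After 3 h of IL1B, 4 phase II enzymes were lower and 1 was higher. Transcripts of Gstt2, Sult1c2, Gsto1 and Ugt2b5 fell, and Sult1e1 was called higher although all of its values lay at background. In all, 9.62% of members passed the threshold of 0.05 on the adjusted p, against 12.5% of all genes tested. The members called lower were 7.69%, against 5.32% of all genes, and those called higher 1.92%, against 7.19%. Values of the 2 groups did not overlap for 8 members, or 15.4%, all of them lower in IL1B, and the share over all genes was 19.0%. Among these 8, Sult2a4 was at background in every array. The shares of members called or not overlapping were therefore near or below those of the whole array, and no change particular to these families can be read from them. Over all genes, 1594 were higher and 1179 lower, a share of 57.5% higher that became 46.6% after quantile normalization.

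Most members nevertheless had a lower mean in IL1B. This held for 39 of 52 members, or 75%, against 58.0% of all genes, and the median log2 fold change was -0.33 against -0.06. With values below an array's background raised to it, both medians were -0.13. That value is the difference between the mean background limits of the groups. Genes at background in every array, 54.8% of all genes and 17 members, then take it. The all-gene median was thus set by the limits, and its match to that of the members is not a measured shift. Among members whose mean was above background, 24 of 33 had a lower mean, with a median of -0.35, against 47.0% and 0.04 over 8761 such genes. At an unadjusted p under 0.05 there were 14 lower and 3 higher members, 17 of 52 in all. At the study's adjusted p of 0.15 there were 11 lower and 2 higher, 13 in all. In the limma ranking of all genes, Gstt4, the first member past the unadjusted limit, stood at 26.9%. Sult1b1, the last member within the adjusted limit, stood at 22.8%. Lower and higher genes over the whole array were not counted at these limits, so no excess of lower members can be read from these counts. The mice also differed more in the members than in other genes. The median SD within a group was 0.49 in PBS and 0.52 in IL1B for these 33 members, against 0.25 in both groups for genes above background. Of the 31 uncalled members above background in some array, 16 had a 95% confidence interval that reached a log2 fold change of -1, so these data allow a 2-fold fall for them.

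The counts depended on the arrays used, as did those over all genes. The 4 members called lower became 2 (Gstt2 and Sult1c2) without PBS array 1 and also without IL1B array 1, and 1 (Sult1c2) without IL1B arrays 1 and 2 together. Over the whole array, the genes called lower went from 1179 to 677, 676 and 530 in these fits, in this order.

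**Figure D1:**
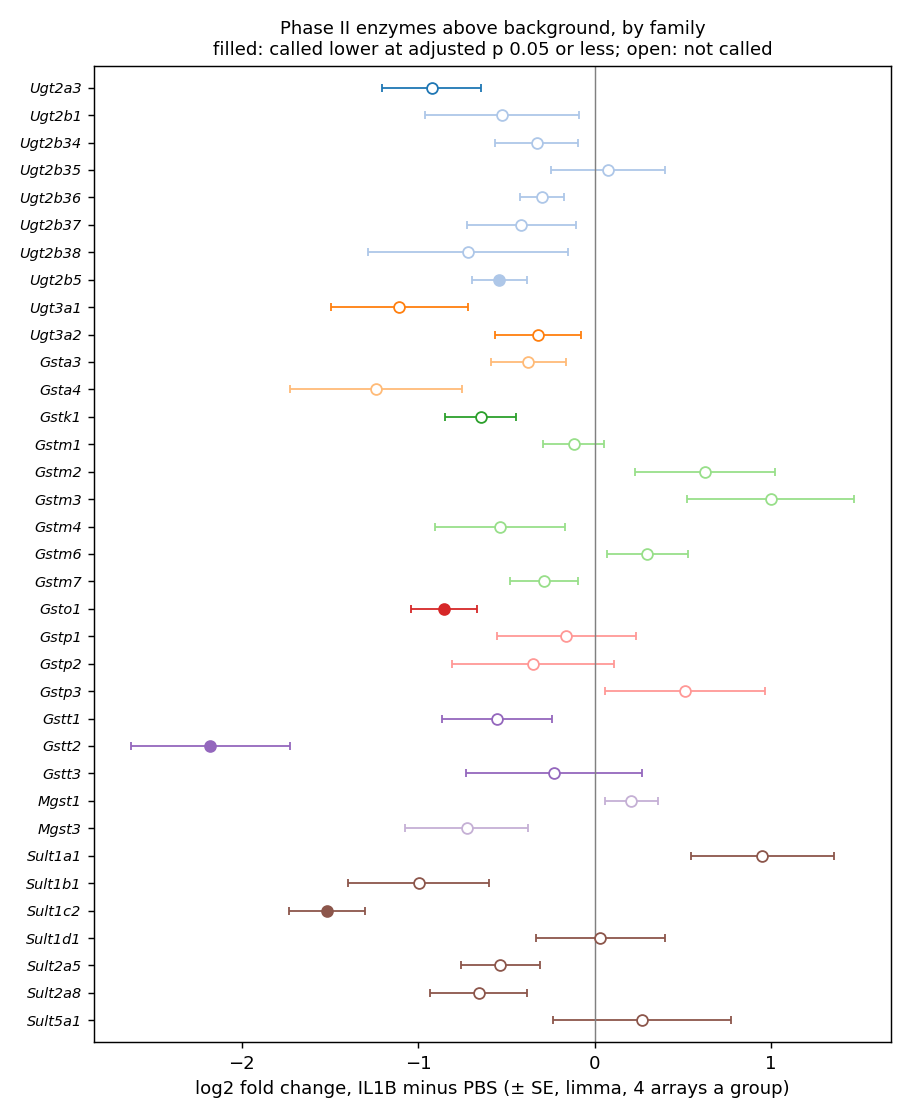
Log2 fold change (IL1B minus PBS, ± SE from limma, 4 arrays a group) of the 35 members above background in at least 1 array, coloured by family. Filled points are the 4 members called lower, of which Gstt2 at -2.18 lies farthest from 0; open points were not called.

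The UDP-glucuronosyltransferases were represented by 10 genes, of which 9 had a lower mean in IL1B and 1, Ugt2b5, was called. Ugt2b5, a hepatic glucuronosyltransferase, had log2 values of 16.85, 16.89, 16.87 and 17.21 in PBS and of 16.35, 16.24, 16.34 and 16.73 in IL1B. Every IL1B value lay below every PBS value, and array 4 was the highest in each group. The log2 fold change was -0.54 ± 0.15 (SE, n = 4 a group; adjusted p = 0.0498, limma), a 1.45-fold fall. This call sat at the threshold. It was lost in each fit that left out 1 array except the fit without IL1B array 4, with adjusted p-values from 0.0283 to 0.119, and with each array centred on its median it was 0.0936. Without IL1B arrays 1 and 2 together the difference was -0.42 (adjusted p = 0.261, limma).

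Ugt2a3, which glucuronidates bile acids in humans, read 16.44, 16.11, 16.54 and 16.64 in PBS and 15.33, 14.71, 16.01 and 15.97 in IL1B. The groups did not overlap, but IL1B arrays 1 and 2 were far below arrays 3 and 4. The difference of -0.92 ± 0.28 was not called (adjusted p = 0.0633, limma; 95% confidence interval -1.56 to -0.29), and without IL1B arrays 1 and 2 together it was -0.44 (adjusted p = 0.234). Ugt3a1, whose human counterpart uses UDP-N-acetylglucosamine in place of UDP-glucuronic acid, read 15.97, 14.63, 15.96 and 15.87 in PBS and 14.85, 13.54, 15.06 and 14.54 in IL1B. Array 2 was the lowest in each group, so PBS array 2 fell among the IL1B values. The difference was -1.11 ± 0.39 (adjusted p = 0.0986, limma), and without PBS array 2 it was -1.43 and was called (adjusted p = 0.0292). Its neighbour Ugt3a2 differed by -0.32 ± 0.25 (adjusted p = 0.452).

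The brightest Ugt2b feature belonged to Ugt2b1, a broad-substrate enzyme, with 19.08, 18.15, 19.21 and 19.76 in PBS and 18.57, 17.36, 18.97 and 19.22 in IL1B. Its groups overlapped, and 5 of the 8 values were within 1 log2 unit of the ceiling, where differences are compressed. The log2 fold change of -0.52 ± 0.44 was not called (adjusted p = 0.496, limma). Over the 7 Ugt2b genes, log2 fold changes ranged from -0.72 to 0.07. Ugt2b36, chosen after its values were seen, was the other Ugt2b gene whose groups did not overlap, with 16.62, 16.41, 16.56 and 16.75 in PBS against 16.20, 16.28, 16.35 and 16.32 in IL1B, and its log2 fold change of -0.30 ± 0.12 was not called (adjusted p = 0.159).

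Ugt2b5 and Ugt2b36 lie in the same Ugt2 cluster on chromosome 5, and the 100 bases before their RefSeq start sites (GRCm38.p6) are shown because these were the Ugt2b genes with separate groups. Capitals mark a match to the C/EBP letters TTGCNNAA, read on either strand, in this case on the reverse strand. The match began 74 bases before the start of Ugt2b5 (chr5:87140341-87140440, minus strand) and 77 bases before that of Ugt2b36 (chr5:87092556-87092655, minus strand).
Ugt2b5: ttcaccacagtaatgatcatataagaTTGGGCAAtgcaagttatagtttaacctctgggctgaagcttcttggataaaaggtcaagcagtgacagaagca
Ugt2b36: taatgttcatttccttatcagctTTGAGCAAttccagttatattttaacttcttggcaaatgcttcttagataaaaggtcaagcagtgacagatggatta
These letters were chosen for their regulators after the values were seen, and a match is not a measured binding site. Within 250 bases before the start, they were present for 10 of the 45 members with a RefSeq promoter, or 22.2%, and for 10.8% of all 27025 genes in that table. The 10 members were Gsta3, Gstm2, Gstp3, Gstt1, Mgst1, Sult2a3, Sult2a4, Sult2a8, Ugt2b36 and Ugt2b5, several of which are paralogs with shared sequence.

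The cytosolic glutathione S-transferases held both the largest fall and the largest positive difference of the glutathione families. Gstt2, a theta-class enzyme, had log2 values of 10.50, 10.52, 11.75 and 9.31 in PBS and of 7.94, 7.94, 8.63 and 8.87 in IL1B. All IL1B values lay below the lowest PBS value, and the PBS mice differed among themselves by more than the IL1B mice (SD 0.997 and 0.478). The log2 fold change was -2.18 ± 0.45 (n = 4 a group; adjusted p = 0.0136, limma), a 4.53-fold fall, and it was called in all 8 fits that left out 1 array. Without IL1B arrays 1 and 2 together it was -1.77 (adjusted p = 0.109).

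Gstt2 stands next to Gstt4, Gstt1 and Gstt3 in a cluster on chromosome 10. Gstt1, which conjugates small halogenated compounds, read 15.70, 15.02, 15.54 and 14.71 in PBS and 14.17, 14.25, 15.36 and 14.98 in IL1B, with overlapping groups. Its difference of -0.55 ± 0.31 was not called (adjusted p = 0.296, limma), and without IL1B arrays 1 and 2 together it was -0.07. Gstt3 differed by -0.23, with values from -0.56 to 0.10 when 1 array was left out, and Gstt4 was at background in every array. Whether Gstt2 differed from its neighbours in its change was not tested.

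Gsto1, the omega-class enzyme that reduces dehydroascorbate, read 14.24, 14.20, 14.27 and 13.99 in PBS and 13.09, 12.98, 13.42 and 13.80 in IL1B. The PBS mice were close together (SD 0.12), the IL1B mice were spread over a wider range (SD 0.37), and the groups did not overlap. The log2 fold change was -0.85 ± 0.19 (adjusted p = 0.0173, limma), a 1.81-fold fall. Without PBS array 1 or without IL1B array 1 the adjusted p was 0.0519 and 0.0540, and without IL1B arrays 1 and 2 together the difference was -0.57 (adjusted p = 0.114). Its neighbour Gsto2 was at background in both groups.

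In the alpha class, Gsta4, which conjugates the lipid peroxidation product hydroxynonenal, read 13.81, 14.27, 14.24 and 13.34 in PBS and 11.88, 11.56, 13.49 and 13.78 in IL1B. IL1B arrays 1 and 2 were low while arrays 3 and 4 lay within the PBS range. The difference of -1.24 ± 0.49 was not called (adjusted p = 0.138, limma; 95% confidence interval -2.34 to -0.14), and without IL1B arrays 1 and 2 together it was -0.28 (adjusted p = 0.625). Gsta3, known in mice for the conjugation of aflatoxin epoxide, had the brighter feature and differed by -0.38 ± 0.21 (adjusted p = 0.294).

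In the mu class, 3 of 6 genes had a higher and 3 a lower mean, and none was called or passed an unadjusted p of 0.05 in limma. Gstm3 had the brightest feature of the class, with 13.41, 14.05, 12.95 and 12.08 in PBS and 15.26, 14.15, 13.59 and 13.49 in IL1B. The groups overlapped, and IL1B array 1 was the highest of all. The difference of 0.998 ± 0.474 was not called (adjusted p = 0.215, limma; 95% confidence interval -0.07 to 2.06). It was 0.62 without IL1B array 1, 0.65 without PBS array 4 and 0.41 without IL1B arrays 1 and 2 together. In the pi class, Gstp1 had 6 of 8 values within 1 log2 unit of the ceiling, with 19.21, 18.14, 19.42 and 19.88 in PBS and 19.10, 18.19, 19.06 and 19.66 in IL1B. Array 2 was the lowest in each group, the groups overlapped, and the difference was -0.16 ± 0.39 (adjusted p = 0.843).

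Gstk1, a mitochondrial and peroxisomal enzyme of a separate fold, read 17.03, 16.25, 16.59 and 16.37 in PBS and 15.65, 15.81, 16.25 and 15.94 in IL1B. The groups did not overlap, with the lowest PBS value just above the highest IL1B value. The difference of -0.65 ± 0.20 was not called (adjusted p = 0.0682, limma; 95% confidence interval -1.10 to -0.19), but was with quantile normalization (adjusted p = 0.0458) and with the filter on dim genes (adjusted p = 0.0389). Of the microsomal enzymes, Mgst1 differed by 0.21 ± 0.15 (adjusted p = 0.429), and 5 of its 8 values were the same to the last deposited digit, 16.79, as happened in 44 genes of the array. Mgst2 was at background in both groups, and Mgst3 was not called with all arrays but was called without PBS array 4 (-1.08, adjusted p = 0.0256).

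**Figure D2:**
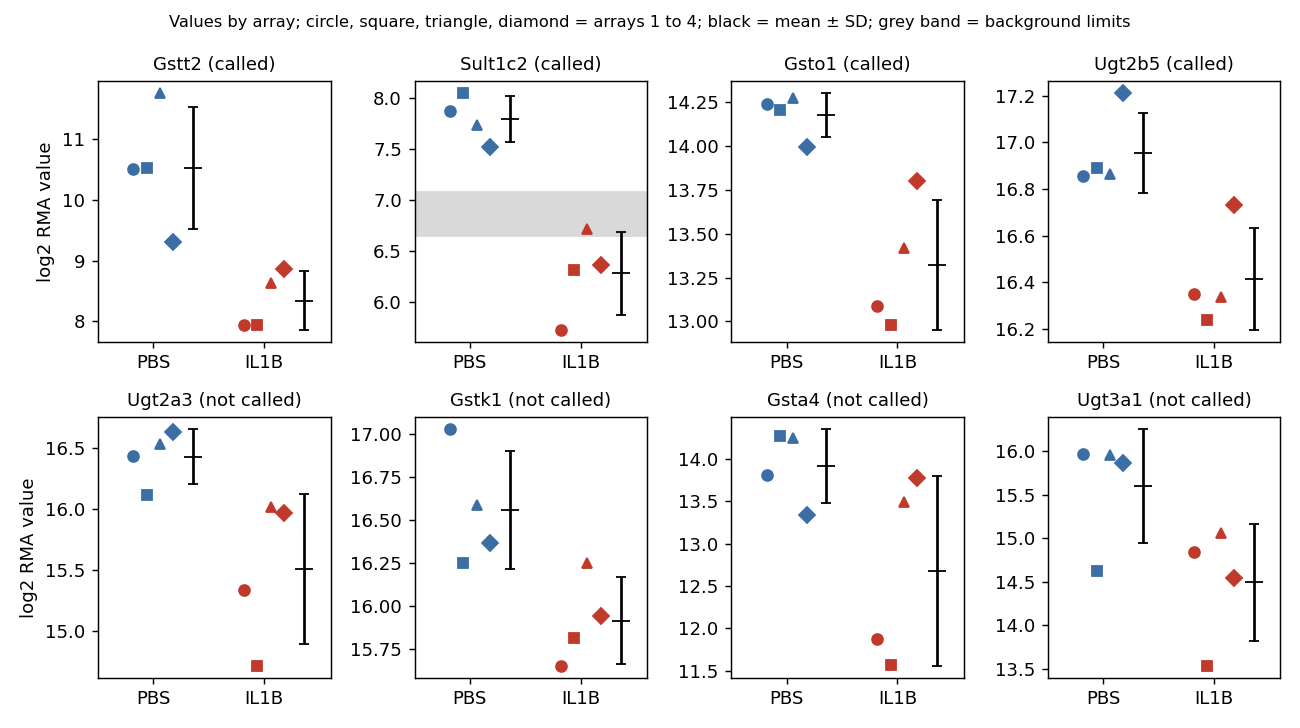
Log2 RMA values of 8 members in each array (symbols are arrays 1 to 4 of each group, black marks are the mean ± SD, n = 4), with each panel on its own axis. In Gstt2, Sult1c2, Gsto1 and Ugt2b5 (called) and in Ugt2a3 and Gstk1 (not called) all IL1B values lie below all PBS values; in Gsta4 IL1B arrays 1 and 2 stand at 11.88 and 11.56, below arrays 3 and 4 at 13.49 and 13.78. The grey band in the Sult1c2 panel spans the background limits.

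Of 21 sulfotransferases, 14 were at background in every array, 1 was called lower and 1 higher. Sult1c2, a sulfotransferase that acts on phenols, had log2 values of 7.87, 8.05, 7.74 and 7.52 in PBS and of 5.72, 6.31, 6.72 and 6.36 in IL1B. All PBS values were above background, and 1 of the 4 IL1B values was. The log2 fold change was -1.52 ± 0.21 (n = 4 a group; adjusted p = 0.00210, limma), and -1.12 with values below an array's background raised to it. It was called in all 8 fits that left out 1 array, and without IL1B arrays 1 and 2 together it was -1.26 (adjusted p = 0.0108). It was the only member called in that fit, in which 1560 of 22180 genes were called.

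Sult1e1, the estrogen sulfotransferase, read 4.80, 3.88, 4.31 and 4.34 in PBS and 6.00, 5.70, 5.37 and 4.65 in IL1B. It was called higher (adjusted p = 0.0402, limma), but all 8 values were below the background limits, so no fold is given. Only the fits without PBS array 1 and without IL1B array 4 kept the call, with adjusted p-values from 0.00995 to 0.101 over the 8 fits. Without IL1B arrays 1 and 2 together Sult1e1 was not called (adjusted p = 0.236, limma). Its neighbours in the cluster on chromosome 5 were Sult1d1 and Sult1b1. Sult1b1, chosen after its values were seen, sulfates thyroid hormones and had a difference of -0.998 ± 0.398 that was not called (adjusted p = 0.142), except without IL1B array 3 (-1.33, adjusted p = 0.0452), and that was -0.53 without IL1B arrays 1 and 2 together.

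Sult2a8, a hepatic bile acid sulfotransferase of the mouse, had the brightest sulfotransferase feature, with 18.15, 17.62, 17.95 and 18.57 in PBS and 17.20, 16.81, 17.80 and 17.83 in IL1B. The lowest PBS value lay among the IL1B values. The difference of -0.66 ± 0.27 was not called (adjusted p = 0.158, limma), and without IL1B arrays 1 and 2 together it was -0.25. Sult1a1, the main phenol sulfotransferase and also chosen after its values were seen, went the other way, with 16.55, 17.07, 16.33 and 14.85 in PBS and 16.85, 17.33, 17.30 and 17.12 in IL1B. PBS array 4 was far below the rest, and the difference of 0.95 ± 0.40 was not called (adjusted p = 0.166). Without PBS array 4 it was 0.50 (adjusted p = 0.193).

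Some Sult2a genes share a sequence feature that the choice of members did not use. The letters GTTAATNAT, part of the HNF1 motif and searched on both strands of the same 250 bases, were found for 5 of 45 members, or 11.1%, and for 0.866% of all genes in the table. These were Sult1d1 and 4 of the 8 Sult2a genes, which are near-identical copies on chromosome 7 and thus not independent. The windows around the matches are shown 5′ to 3′ for GRCm38.p6 with the matching bases in capitals, at chr5:87569061-87569101 (minus) for Sult1d1, chr7:14123075-14123115 (minus) for Sult2a3, chr7:13989671-13989711 (minus) for Sult2a4, chr7:13623923-13623963 (plus) for Sult2a5 and chr7:14254917-14254957 (minus) for Sult2a6.
Sult1d1: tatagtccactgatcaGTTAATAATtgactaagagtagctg
Sult2a3: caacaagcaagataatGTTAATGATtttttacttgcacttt
Sult2a4: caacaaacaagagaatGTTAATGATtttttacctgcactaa
Sult2a5: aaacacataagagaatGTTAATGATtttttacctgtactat
Sult2a6: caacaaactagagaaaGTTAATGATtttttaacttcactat
In these male livers Sult2a3, Sult2a4 and Sult2a6 were at background in every array, and Sult2a5 was above background in 2 PBS arrays only. Sult1d1, which sulfates catecholamines, was well above background and differed by 0.03 ± 0.37 (adjusted p = 0.968, limma), with values from -0.20 to 0.44 when 1 array was left out. The match therefore went with low as well as with high signals, and none of these genes was called.

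The other members called lower that had a RefSeq promoter were Gsto1 (chr19:47854873-47854972, plus strand) and Sult1c2 (chr17:53845959-53846058, minus strand). Their last 100 bases before the start are shown for comparison with Ugt2b5.
Gsto1: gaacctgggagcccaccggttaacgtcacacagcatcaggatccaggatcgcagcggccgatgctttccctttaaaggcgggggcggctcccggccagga
Sult1c2: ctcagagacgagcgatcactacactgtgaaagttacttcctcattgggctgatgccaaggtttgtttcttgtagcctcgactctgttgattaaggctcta
Neither window held any of the 7 motifs searched. The others, with their share of all genes, were the antioxidant response core TGACNNNGC (11.5%), the xenobiotic response core GCGTG (30.9%), the STAT motif TTCNNNGAA (8.13%), the NF-kB motif GGGANTTCC (1.63%) and the HNF4 motif CAAAGTCCA (0.451%). Among members they were found in 6.67%, 15.6%, 4.44%, 2.22% and 0 of 45 genes, in this order. No printed match overlapped a match to another motif. These letters say nothing of sites outside the windows.

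A further 9 features were annotated to several genes that include a member, and none was called in limma over all features, with 1 at an unadjusted p under 0.05. Log2 fold changes ranged from -1.50 to 0.19. The Ugt1a genes, which share their last exons and include the bilirubin-conjugating Ugt1a1, were covered by 2 features. The first read 10.10, 9.68, 10.28 and 9.79 in PBS and 9.58, 9.52, 9.88 and 9.67 in IL1B, and the second 12.36, 12.27, 13.02 and 12.32 against 11.53, 12.37, 11.93 and 12.18. Both overlapped between groups, with differences of -0.30 ± 0.17 and -0.49 ± 0.24. A feature shared by Gsta1, Gsta2 and 2 predicted genes differed by -1.50 ± 0.53 (adjusted p = 0.149). It read 12.78, 13.68, 12.61 and 12.00 in PBS and 10.77, 10.06, 12.30 and 11.95 in IL1B, so IL1B arrays 1 and 2 were again the low ones, as for Gsta4. The feature of Gstz1, the enzyme of tyrosine breakdown, and Pomt2 differed by -0.34 ± 0.18.

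The 4 IL1B livers were not alike. The mean log2 value over the members above background was 13.80, 13.35, 13.67 and 13.50 in PBS and 13.13, 12.88, 13.46 and 13.37 in IL1B, so IL1B arrays 1 and 2 were lowest and IL1B arrays 3 and 4 lay within or near the PBS range. Over all genes above background the same means were 9.998 to 10.19 in PBS and 10.14 to 10.25 in IL1B. The 2 arrays with the lowest member means were those with the highest neutrophil and macrophage markers. Of the 10 neutrophil markers, 7 were called higher, against 7.19% of all genes, and none was at background in every array. S100a8 read 12.17, 13.04, 7.69 and 7.79 in IL1B and at most 4.66 in PBS. Of the 10 macrophage markers none was called in limma, with 1 at an unadjusted p under 0.05, and Marco, chosen after its values were seen, read 15.14, 13.33, 9.74 and 8.62 in IL1B. The part of these cells in the enzyme differences was not tested. In bulk liver, fewer cells of a type and less RNA per cell cannot be told apart.

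Array 2 was low in both groups. It had the lowest value of its group in both PBS and IL1B for 12 of 33 members, or 36.4%, against 22.2% of 8761 genes above background. These were Gsta3, Gstm7, Gstp1, Gstp2, Sult1b1, Sult2a8, Ugt2a3, Ugt2b1, Ugt2b34, Ugt2b35, Ugt3a1 and Ugt3a2. Without IL1B arrays 1 and 2 the median log2 fold change of the members was -0.20, and without PBS array 2 it was -0.44, against -0.33 with all arrays.

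**Figure D3:**
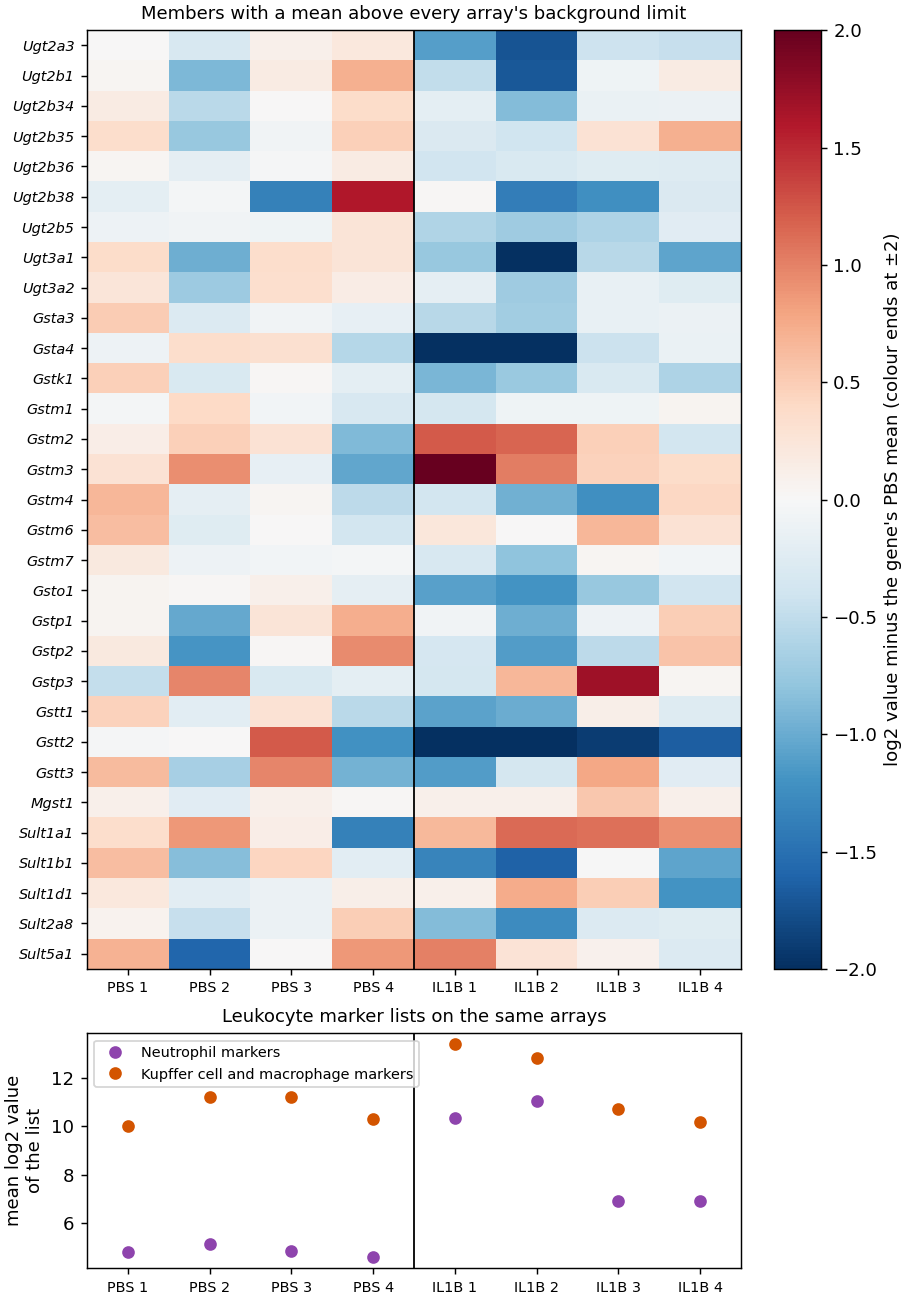
Top, log2 value minus the PBS mean of each gene for the 31 members whose mean was above every background limit, in each of the 8 arrays (colour ends at ±2). Bottom, mean log2 value of the neutrophil and macrophage marker lists on the same arrays, which is highest in IL1B arrays 1 and 2, where Gsta4 and Gstt2 reach the blue end of the colour scale, as does Ugt3a1 in IL1B array 2.

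Genes around the conjugation reactions were called in both directions, as were genes over the whole array (7.19% higher and 5.32% lower). Among genes with a mean above background, the shares were 15.8% higher and 9.39% lower. Of 20 genes that supply cofactors or turn them over, 4 were called higher (20%) and 1 lower (5%). Ugdh, which makes UDP-glucuronic acid, read 15.57, 15.03, 15.05 and 15.22 in PBS and 16.61, 16.07, 15.73 and 16.23 in IL1B, without overlap, and rose by 0.95 ± 0.21 on the log2 scale (adjusted p = 0.0168, limma). Pgd, which supplies NADPH, rose by 1.42 ± 0.30, and Ggt6, of the gamma-glutamyltransferase family, by 1.45 ± 0.17. Chac2, which degrades glutathione, fell by 1.24 ± 0.27. The median of the list was -0.12. Of 24 other conjugation enzymes and related proteins, 2 were called higher (8.33%) and 5 lower (20.8%). Nnmt, which methylates nicotinamide, rose from 8.41, 9.75, 8.49 and 8.50 to 12.65, 12.84, 10.99 and 10.72, by 3.01 ± 0.52 (adjusted p = 0.00564), and was again highest in IL1B arrays 1 and 2. Clic4, a chloride channel protein with a glutathione transferase fold, rose by 1.42 ± 0.15, and Glyat, the glycine conjugase, and Nat8f1, of the N-acetyltransferases, fell by 1.04 ± 0.21 and 0.85 ± 0.14. Of 8 hydrolases none was called in limma, with 2 lower at an unadjusted p under 0.05.

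Among 25 regulators of these genes, 6 were called higher (24%) and 1 lower (4%). The shares were 7.19% and 5.32% of all genes, and 15.8% and 9.39% of the 8761 genes with a mean above background. Of the 25 regulators, 3 were at background in both groups. Nr1i3, the receptor CAR, read 14.77, 13.93, 15.65 and 14.69 in PBS and 9.90, 10.43, 12.17 and 11.40 in IL1B. The groups were far apart, and IL1B arrays 1 and 2 were again the lowest. It fell by 3.79 ± 0.50 on the log2 scale (adjusted p = 0.00151, limma). Nr1i2, the receptor PXR, differed by -0.61 ± 0.26 (adjusted p = 0.165), and Nfe2l2, which encodes NRF2, by 0.70 ± 0.28 (adjusted p = 0.139), neither of them called. Cebpb, a C/EBP factor of the acute phase response, rose by 2.10 ± 0.24, Ahr by 1.68 ± 0.40, and Bach1, a repressor at antioxidant response elements, by 1.29 ± 0.16.

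**Figure D4:**
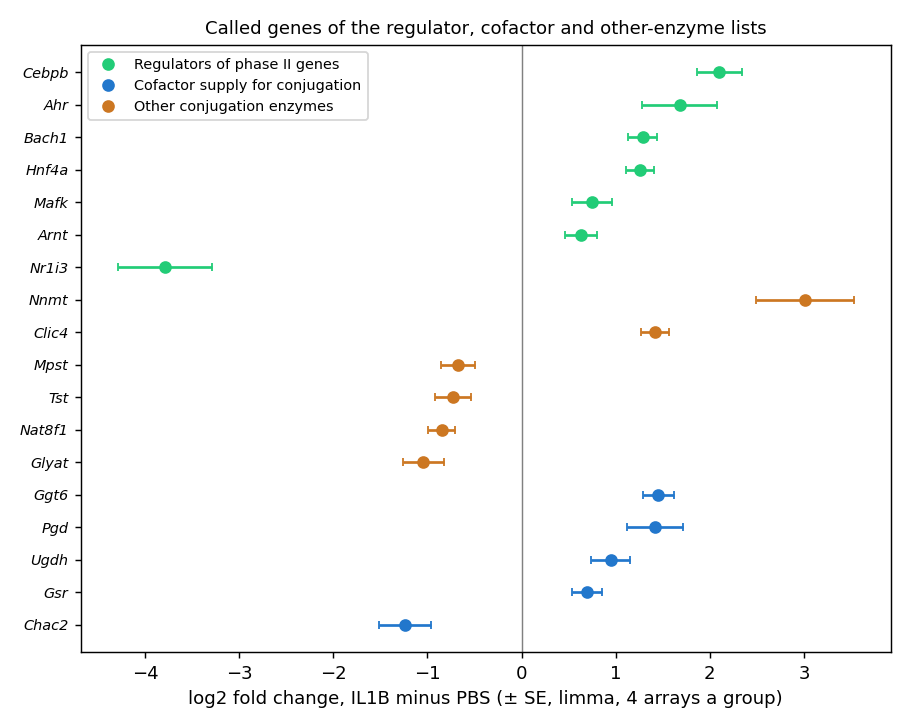
Log2 fold change (IL1B minus PBS, ± SE from limma, 4 arrays a group) of the 18 called genes of the regulator, cofactor and other conjugation enzyme lists that were above background in at least 4 arrays. Nr1i3 at -3.79 and Nnmt at 3.01 are the ends of the range.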

How the data were processed

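The authors hybridized liver RNA of 4 PBS and 4 IL1B mice, each to its own MoGene 2.0 ST array. From these they deposited log2 RMA signals, obtained through Affymetrix Power Tools (GC correction where available, intensity scaling, robust multi-array averaging at probe-set level; version not given in the sources used here). This removes part of any global difference between groups.

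Of 41345 features, 23521 had 1 symbol in the platform annotation, 1820 several and 16004 none. Features with 1 symbol were averaged to 22180 genes. Samples were grouped by their labels. Differences were tested with limma 3.58.1 in R 4.3.3 (lmFit and eBayes, group as the only factor, all 8 arrays). Benjamini-Hochberg adjustment was over all genes, with calls at 0.05. The test was checked on simulated data with independent noise and the same SD in both groups. These data lacked the split among the IL1B arrays, so the check does not cover it. Errors are SE from limma, and the number of arrays limits the precision. Background limits came from 23 antigenomic probe sets. Members and lists were chosen with earlier results of these data known. Of 173 list entries, 158 were measured.

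Values were printed for members that were called, changed by 1 log2 unit or more above background or had the brightest feature of their family, and for called genes of the lists, at most 4 each, with Nr1i2, Nr1i3 and Nfe2l2. Promoter sequences came from RefSeq (GRCm38.p6), with 45 of 52 members matched. The array's own genome build was not given. Figures were drawn with matplotlib 3.10.9. Alternatives were other normalizations, filters, thresholds, weights, a replicate block and leaving out arrays.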

Additional observations from a re-analysis of the deposited data

Results flagged for a closer look

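In 40 groups of 4 arrays, those of the named members and of 3 more chosen after the values were seen, 4 had an end value far from the others by Dixon's ratio, where chance gives about 1 in 20. Mgst1 in IL1B array 3 was at 17.23 while the other IL1B arrays shared 16.79. With those values equal, any other value in array 3 would be flagged, so the chance rate does not apply to this group. Ugt2b5 in PBS array 4 was at 17.21, above the others at 16.85 to 16.89. Array 2 was the low value in the other 2 cases. Ugt3a1 in PBS array 2 was at 14.63, below the others at 15.87 to 15.97, and Ugt3a2 in IL1B array 2 was at 17.51, below the others at 17.98 to 18.07.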

How the results depend on the processing

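With quantile normalization or median centring, with the brightest feature of each gene, with eBayes with trend and robust options or with array weights, 3 to 6 members were called lower, and with the filter on dim genes 6. None was called higher with the filter (0, which removes Sult1e1) or with array weights (0). At an adjusted p of 0.15 there were 2 higher and 11 lower, and at 0.01 there were 0 and 1. Leaving out 1 array in turn gave 0 to 1 higher and 2 to 5 lower members. Over all genes these fits gave 1082 to 1399 higher and 676 to 1077 lower. Without IL1B arrays 1 and 2, an alternative added after the data were seen, there were 0 and 1 members, against 1030 and 530 genes. The median log2 fold change of the members lay between -0.44 and -0.20 in these settings. With values raised to each array's background limit, also added after the data were seen, it was -0.13, as over all genes. This is the difference between the limits of the groups, which 17 members then take because they are at the limit in every array. No shared feature was called under quantile normalization, median centring or without any 1 array; other settings were not run for them. The sign turned without 1 array for 8 of 52 members (Gstm1, Gstp1, Gstt3, Sult1d1, Sult2a7, Sult2b1, Sult5a1 and Ugt2b35). Of those named by the rule, Gstp1 was among them. Its values without 1 array ranged from -0.50 to 0.11, and it was 0.20 without IL1B arrays 1 and 2. Ugt2b1 kept its sign in each fit without 1 array (-0.82 to -0.13) but was 0.044 without IL1B arrays 1 and 2. Neither was called. The cause was not tested.

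With the replicate number as a block, 7 members were called lower and 1 higher, and 2562 genes in all against 2773. Deviations of same-numbered arrays correlated by -0.07, 0.22, 0.05 and 0.12, and those of differently numbered arrays by -0.19 to 0.08. The labels do not say that equal numbers pair the mice, so the main fit had no block. Whether same-numbered arrays shared a batch was not tested.

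Members uncalled with all arrays but called elsewhere were Gstk1, Ugt2a3, Ugt3a1, Sult2a4, Mgst3 and Sult1b1. Gstk1 and Ugt2a3 were called with quantile normalization (adjusted p = 0.0458 and 0.0463, limma) and with the filter on dim genes. Ugt2a3 was also called with trend, with the block and without IL1B array 3 or 4. Ugt3a1 was called with the block (adjusted p = 0.00622, limma) and without PBS array 2. Sult2a4 was called with the block, trend and array weights, although it was at background in every array. Mgst3 was called without PBS array 4, and Sult1b1 without IL1B array 3. Measurement was limited by background for 17 members and by the ceiling for Gstp1 and Ugt2b1. Mgst1 had 5 of 8 values equal, and whether this limited its measurement was not tested.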
